A study of Homo sapiens with 6 samples.

Results

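The genes described here encode receptors and ligands of the epidermal growth factor (EGF) family, together with an inhibitor of the receptors. They were the 10 genes given by name, EGFR, ERBB2 and ERBB3 (receptors), AREG, EREG, HBEGF, TGFA, BTC and NRG1 (ligands) and ERRFI1 (inhibitor), and all 10 were found among the 28563 genes of the deposited table. RNA-seq was made from cells of the human HepG2 line, which was established from a liver tumor. There were 3 dishes treated with polydatin (PD, a plant stilbene that is the glucoside of resveratrol) and 3 dishes given the vehicle DMSO alone, with 1 library per dish. Both groups were kept for 24 h after the treatment began and were otherwise cultured alike. By the sample labels the concentration of PD was 336 µM, which differs from that in the methods of the paper. All dishes were seeded from a single line and were assigned to the groups at random, so the p-values measure the spread between dishes.

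The receptors are single-span tyrosine kinases that are activated when they pair. EGFR binds the ligands AREG, EREG, HBEGF, TGFA and BTC, ERBB3 binds neuregulins such as NRG1 but has little kinase activity of its own, and ERBB2 has no known ligand and serves as the preferred partner of the others. The ligands are made as membrane-bound precursors and released by metalloproteases, mainly ADAM17 and ADAM10. In liver, EGFR signaling is known for its part in regeneration, and its pathway is often active in liver tumors.

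The deposited values were FPKM, fragments counted on a gene and scaled to the length of the gene and the size of the library, and the totals worked back from them were 16308476 to 18071632 fragments per library. Of 18 genes listed as markers of hepatocytes, 9 were in the table, and only CPS1 and RBP4 reached 1 FPKM in any library. Without CPS1, the summed level of the others was 0.485 to 0.582 FPKM in DMSO and 1.32 to 1.81 FPKM in PD. CPS1 itself was 224.9 ± 3.46 FPKM with DMSO and 108.6 ± 2.60 FPKM with PD (SD, n = 3 each). ALB and AFP were on the list but had no values to analyse, and APOA1, TF, SERPINA1, FGA and HNF4A stayed at 0.172 FPKM or less. The labelled cell type was thus not shown by its defining markers. The epithelial list had 4 of 5 genes in the table at 1 FPKM or more (summed level 111.8 to 115.6 FPKM in DMSO and 125.5 to 132.0 FPKM in PD), and the mesenchymal list 4 of 7 (27.6 to 28.6 FPKM in DMSO and 37.8 to 39.2 FPKM in PD). The epithelial genes did not move together. From DMSO to PD the mean of KRT8 went from 50.1 to 68.9 FPKM and that of CLDN1 from 15.7 to 11.6 FPKM. The groups overlapped for KRT18 and EPCAM, and CDH1, the gene below 1 FPKM, had means of 0.127 and 0.0343 FPKM. No gene of the endothelial or leukocyte lists reached 1 FPKM. The name HepG2 is used as the labels give it, and the part of these markers in the results was not tested.

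To determine how PD treatment altered the family, PD was compared with DMSO by limma on log2(FPKM + 1) over the 14400 genes whose mean level reached 0.5 FPKM, with p-values adjusted by the Benjamini-Hochberg method over all of them. Of the 10 members, 7 passed this minimum, and 6 of the 7 rose while EGFR fell, with an adjusted p (limma) not above 0.05. Over all tested genes, 31.9% were called higher and 26.2% were called lower. None of the 7 reached a 2-fold change on this scale, which 3.61% of the tested genes did. The PD and DMSO values did not overlap in any of the 7, and they did not overlap in 65.4% of all tested genes. The median log2 fold change was 0.45 over the 7 members and 0.01 over all tested genes. AREG, 1 of the 6 that rose, had a mean of 0.486 FPKM in DMSO and 0.880 FPKM in PD. It passed the minimum only through its PD level, so its place in these counts depends on its rise. The 3 other members, EREG, BTC and NRG1, were under the minimum and are described by their values below. Because the RNA came from whole dishes, fewer cells carrying a transcript and less of it per cell cannot be told apart.

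**Figure D1:**
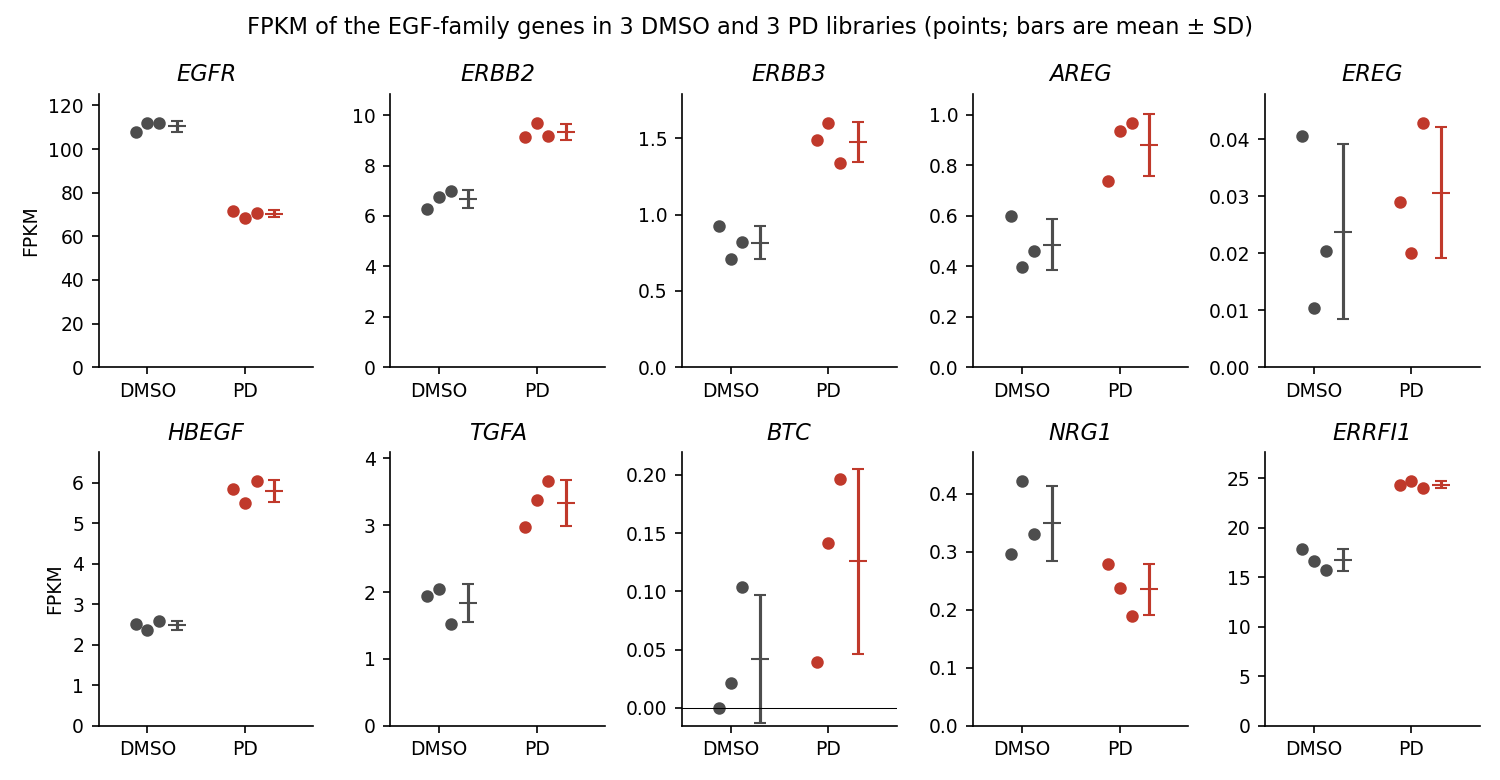
FPKM of the 10 genes in each library (points, DMSO in grey and PD in red), with the mean and SD of each group as bars; every panel has its own linear axis. EGFR was lower in all 3 PD libraries (68.5 to 71.5 FPKM) than in all 3 DMSO libraries (107.6 to 112.0 FPKM), whereas HBEGF, TGFA, AREG, ERBB2, ERBB3 and ERRFI1 were higher in all 3 PD libraries.

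The sequences just upstream of 4 of these genes are shown because EGFR was the member that fell, and HBEGF, AREG and ERRFI1 are members that rose, whose transcription start in RefSeq is also the first base of the gene in GENCODE. Each is the 250 bases before the start, 5′ to 3′ on the strand of the gene, from RefSeq on GRCh38.p14. The positions are chr7:55018767-55019016 (plus strand) for EGFR, chr5:140346604-140346853 (minus strand) for HBEGF, chr4:74444886-74445135 (plus strand) for AREG and chr1:8026310-8026559 (minus strand) for ERRFI1. Capitals mark matches, on either strand, to 5 motifs. These were the cAMP response element with the letters TGACGTCA, the AP-1 site with the letters TGANTCA, the E-box written as CACGTG, the GC box written as GGGCGG and the TATA box written as TATAAA.
EGFR: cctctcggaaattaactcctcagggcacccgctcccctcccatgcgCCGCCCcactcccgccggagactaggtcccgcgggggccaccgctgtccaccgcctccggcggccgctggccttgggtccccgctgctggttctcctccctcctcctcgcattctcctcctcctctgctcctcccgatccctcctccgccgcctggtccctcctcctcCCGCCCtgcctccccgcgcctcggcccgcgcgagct
HBEGF: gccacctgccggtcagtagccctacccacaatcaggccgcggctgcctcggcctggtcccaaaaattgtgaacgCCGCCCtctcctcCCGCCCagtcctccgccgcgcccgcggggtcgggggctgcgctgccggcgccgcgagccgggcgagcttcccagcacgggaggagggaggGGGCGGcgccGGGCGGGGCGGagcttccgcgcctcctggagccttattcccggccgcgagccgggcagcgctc
AREG: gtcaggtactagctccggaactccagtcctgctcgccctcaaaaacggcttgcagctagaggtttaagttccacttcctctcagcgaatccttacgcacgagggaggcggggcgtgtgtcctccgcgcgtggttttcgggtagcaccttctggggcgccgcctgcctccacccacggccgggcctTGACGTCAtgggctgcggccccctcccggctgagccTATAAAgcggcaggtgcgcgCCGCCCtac
ERRFI1: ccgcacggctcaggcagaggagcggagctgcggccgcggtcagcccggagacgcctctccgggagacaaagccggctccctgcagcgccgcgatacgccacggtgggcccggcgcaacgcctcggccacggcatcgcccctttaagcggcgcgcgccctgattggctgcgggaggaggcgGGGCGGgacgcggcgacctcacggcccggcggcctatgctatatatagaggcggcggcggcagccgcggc
In the windows shown, EGFR had 2 GC boxes, HBEGF had 5, of which the closest pair shares a base, and ERRFI1 had 1, and none of these 3 windows held the TATAAA letters. AREG had the full TGACGTCA letters beginning 65 bases before its start, TATAAA beginning 29 bases before it and 1 GC box. The same windows of EREG and BTC, searched in the same way, held 1 TATAAA match and no match, respectively. Of 35116 windows of this length in RefSeq, 42.6% held GGGCGG, 10.7% TATAAA, 6.57% TGANTCA, 6.35% CACGTG and 1.65% TGACGTCA. Such a match is a description of the letters only. EGFR has a second RefSeq start inside the gene, at 55109839 on chromosome 7, and the 250 bases before it held 2 TGANTCA and 2 TATAAA matches and no GC box. That window is not shown, since its start is not the first base of the gene. For ERBB2 and TGFA the RefSeq start lies inside the GENCODE gene, so their windows are not shown, and none is shown for ERBB3 and NRG1.

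EGFR, the receptor for most of these ligands, was by far the most abundant member. The gene (ENSG00000146648) is on chromosome 7 of hg38 from 55019017 to 55211628 on the plus strand. EGFR had 107.6, 112.0 and 111.8 FPKM in DMSO replicates 1, 2 and 3, and 71.5, 68.5 and 70.8 FPKM in PD replicates 1, 2 and 3. All 3 PD libraries were thus below all 3 DMSO libraries, and the means were 110.5 ± 2.49 FPKM (SD, n = 3) and 70.3 ± 1.56 FPKM (SD, n = 3). EGFR fell by 0.64 ± 0.03 on the log2 scale (limma estimate ± SE, adjusted p = 6.3e-06). Between 14453 and 23932 fragments stood behind each value. Even so, EGFR stayed among the highest levels, with 2.11% of the tested genes above it in DMSO and 3.71% in PD. Exons of the antisense gene EGFR-AS1 cover 1.17% of its exon length. The exact permutation test, two-sided, gave 0.10 for EGFR and for each of the other 6 tested members, which is the smallest p that 3 against 3 libraries can give.

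ERBB2, the receptor without a ligand that pairs with the others, rose in PD. ERBB2 (ENSG00000141736) is on chromosome 17 from 39687914 to 39730426 on the plus strand. Its levels were 6.29, 6.77 and 6.995 FPKM in the DMSO replicates and 9.15, 9.69 and 9.16 FPKM in the PD replicates, and the groups did not overlap. On the log2 scale the change was 0.43 ± 0.05 (limma estimate ± SE, adjusted p = 0.00034). Exons of MIEN1 and PGAP3 on the opposite strand cover 6.93% of its exon length, and since the library kit does not mark strand, fragments of ERBB2 and of these genes cannot be told apart there.

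ERBB3, the receptor for neuregulins, was lower in level but also rose. The gene (ENSG00000065361) lies on chromosome 12 from 56076799 to 56103505 on the plus strand. It had 0.923, 0.710 and 0.817 FPKM in DMSO, and 1.49, 1.60 and 1.34 FPKM in PD. Every PD library was above every DMSO library. On the log2 scale the change was 0.45 ± 0.09 (limma estimate ± SE, adjusted p = 0.0037). The pseudocount of 1 understates the change of such a gene, and the ratio of the mean FPKM was 1.81. In total 362 fragments in DMSO and 665 in PD were counted on ERBB3.

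Since FPKM is relative to gene length, levels of different genes were set side by side within a library. Each gene had a single length, whatever transcripts were present. The size of a ratio, share or rank between genes therefore depends on that length. EGFR made up 93.6 ± 0.152% (SD, n = 3) of the summed FPKM of the 3 receptor genes in DMSO and 86.7 ± 0.706% (SD, n = 3) in PD. The ratio of ERBB2 to EGFR was 0.0584, 0.0604 and 0.0625 in the DMSO libraries and 0.128, 0.141 and 0.129 in the PD libraries. The ratio of ERBB3 to EGFR went from 0.00740 ± 0.00112 (SD, n = 3) in DMSO to 0.0210 ± 0.00224 (SD, n = 3) in PD. Both ratios were higher in each PD library than in any DMSO library. This follows from the separate groups of each gene, so the exact permutation test (two-sided, p = 0.10) adds nothing to them. The summed receptor FPKM, which EGFR dominates, was 118.0 ± 2.74 (SD, n = 3) in DMSO and 81.1 ± 1.18 (SD, n = 3) in PD.

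Among the ligands, HBEGF, the heparin-binding EGF-like growth factor, had the largest change of any tested member. It (ENSG00000113070) lies on chromosome 5 from 140332843 to 140346603 on the minus strand, and its upstream sequence is given above. HBEGF had 2.51, 2.35 and 2.58 FPKM in DMSO and 5.85, 5.50 and 6.03 FPKM in PD. The lowest PD library was thus well above the highest DMSO library. The rise was 0.96 ± 0.06 on the log2 scale (limma estimate ± SE, 95% interval 0.83 to 1.10, adjusted p = 1.4e-05). The interval spans the 2-fold threshold, and the ratio of the mean FPKM was 2.34. With a pseudocount of 0.1 in place of 1 the log2 fold change was 1.19, and HBEGF was then past the 2-fold threshold, as were 8.67% of the tested genes. No other member was past 2-fold in that setting.

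TGFA, which encodes transforming growth factor alpha, rose as well. TGFA (ENSG00000163235) is on chromosome 2 from 70447284 to 70554193 on the minus strand. TGFA had 1.95, 2.04 and 1.52 FPKM in DMSO and 2.97, 3.38 and 3.66 FPKM in PD. The groups were separate, although DMSO replicate 3 was below the other DMSO libraries. On the log2 scale the change was 0.61 ± 0.10 (limma estimate ± SE, adjusted p = 0.0013). The pseudocount of 1 understates this change as well. The ratio of the mean FPKM was 1.815, and the log2 fold change was 0.83 with a pseudocount of 0.1 and 0.86 with voom.

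AREG, which encodes amphiregulin, was near the minimum level, which it passed only through PD, and its call was the least certain. It (ENSG00000109321) lies on chromosome 4 from 74445136 to 74455005 on the plus strand. Its levels were 0.597, 0.398 and 0.461 FPKM in DMSO and 0.739, 0.935 and 0.967 FPKM in PD, from 11 to 27 fragments in each library. The groups did not overlap, and AREG rose by 0.34 ± 0.10 on the log2 scale (limma estimate ± SE, adjusted p = 0.025). As for ERBB3, the pseudocount of 1 understates this change. The ratio of the mean FPKM was 1.81, and the log2 fold change was 0.75 with a pseudocount of 0.1 and 0.84 with voom. The adjusted p rose above 0.05 when DMSO replicate 2 (0.073), DMSO replicate 3 (0.062), PD replicate 2 (0.078) or PD replicate 3 (0.080) was left out, while the direction was the same. The neighbouring ligand genes EREG (chromosome 4, 74365145 to 74388749) and BTC (chromosome 4, 74744759 to 74794523) were barely detected.

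EREG, which encodes epiregulin, had 4, 1 and 2 fragments in the DMSO libraries and 3, 2 and 4 in the PD libraries, or at most 0.0429 FPKM. BTC, the betacellulin gene, had 0, 1 and 5 fragments in DMSO and 2, 7 and 9 in PD, with a highest level of 0.196 FPKM. In both genes the groups overlapped, and no difference was detectable at this depth. A count of 0, as for BTC in DMSO replicate 1, still allows up to 3 fragments, counting error only.

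NRG1, the neuregulin gene whose product binds ERBB3, was the member ligand that was lower in all 3 PD libraries. NRG1 (ENSG00000157168) is on chromosome 8 from 31639222 to 32855666 on the plus strand. NRG1 had 0.296, 0.421 and 0.330 FPKM in DMSO and 0.278, 0.237 and 0.189 FPKM in PD, so the highest PD value was close to the lowest DMSO value. The fragments were 202 in total in DMSO and 139 in PD. Since its mean was under 0.5 FPKM, NRG1 was not in the comparison above. When all genes were kept its adjusted p was 0.18 (limma), whereas limma voom on the fragments, which called 28.4% of 15068 genes lower, gave -0.56 ± 0.21 (log2 estimate ± SE, adjusted p = 0.025). The estimate on log2(FPKM + 1) was -0.13, and the pseudocount of 1 understates the change of a gene at this level. The difference in NRG1 thus passed the threshold in the test on fragments and not in that on FPKM with this pseudocount.

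For the 6 ligand genes among the members, the sum was 5.40, 5.25 and 5.01 FPKM in DMSO. In PD it was 9.90, 10.2 and 11.1 FPKM, a ratio of the means of 1.99. The sum leaves out NRG4, a ligand gene outside the members. NRG4 fell from 4.21 ± 0.317 FPKM in DMSO to 2.59 ± 0.158 FPKM in PD (SD, n = 3 each). The ratio and the shares below thus hold for these 6 genes only. HBEGF accounted for 47.6 ± 3.41% (SD, n = 3) of the sum in DMSO and 55.8 ± 2.86% (SD, n = 3) in PD. The share of TGFA was 35.1 ± 4.40% in DMSO and 32.0 ± 1.78% in PD (SD, n = 3 each), with overlapping groups, and that of NRG1 was 6.71 ± 1.27% and 2.28 ± 0.553% (SD, n = 3 each), with groups that did not overlap. Set against the ligand sum, EGFR was 21.2 ± 1.19 times as high in DMSO and 6.77 ± 0.422 times as high in PD (SD, n = 3 each). The sum gave 0.10 in the exact permutation test, two-sided. The ratio gave the same p, which follows from the separate groups of EGFR and of the sum.

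**Figure D2:**
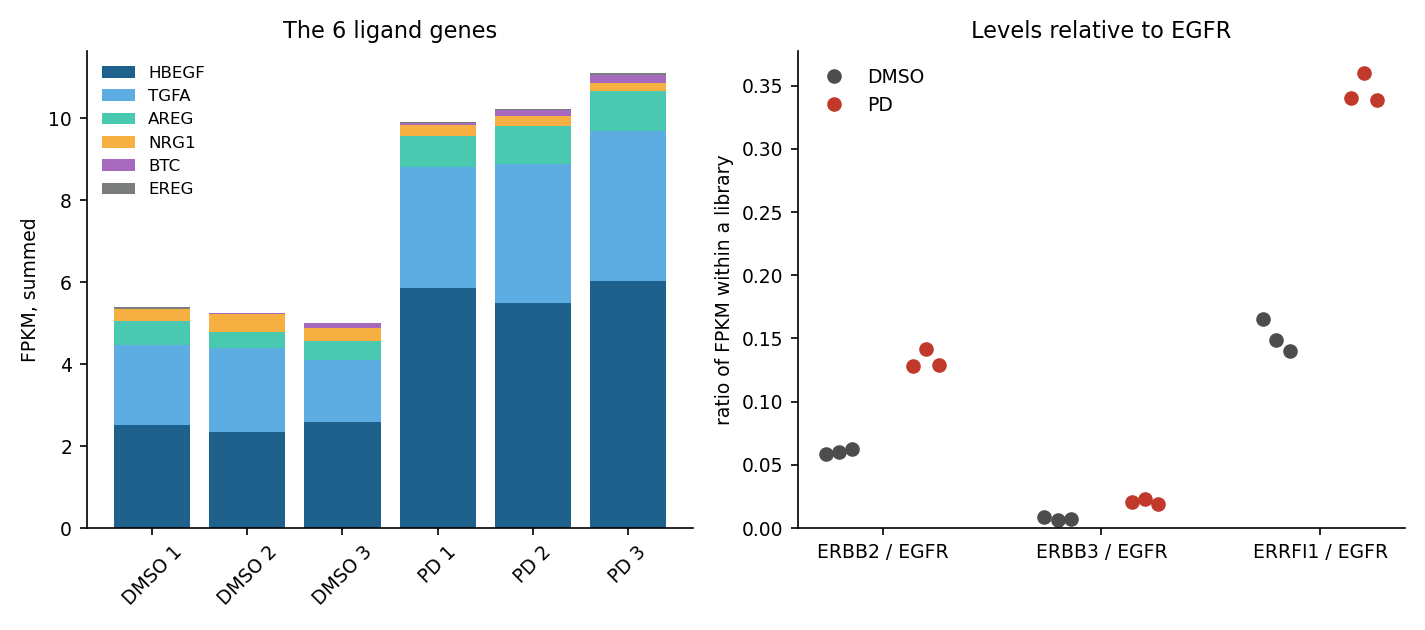
On the left, stacked bars give the FPKM of the 6 member ligand genes in each library, without NRG4. On the right, points give the ratio of the FPKM of ERBB2, ERBB3 and ERRFI1 to that of EGFR within each library. The ligand sum was 5.01 to 5.40 FPKM in DMSO and 9.90 to 11.1 FPKM in PD, with HBEGF and TGFA as the 2 thickest parts of every bar, and all 3 ratios were higher in every PD library.

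ERRFI1, also known as MIG6, encodes a protein that binds the kinase domain of EGFR and its relatives and inhibits them, and its gene is itself induced by EGFR signaling. It (ENSG00000116285) lies on chromosome 1 from 8004404 to 8026309 on the minus strand. ERRFI1 had 17.8, 16.7 and 15.7 FPKM in DMSO and 24.3, 24.7 and 24.0 FPKM in PD. It was the second most abundant member in both groups, and the 2 groups were far apart relative to their spread. On the log2 scale the change was 0.52 ± 0.05 (limma estimate ± SE, adjusted p = 0.00010). The ratio of ERRFI1 to EGFR was 0.152 ± 0.0129 (SD, n = 3) in DMSO and 0.346 ± 0.0119 (SD, n = 3) in PD. Exons of an unnamed gene on the opposite strand cover 3.71% of its exon length.

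**Figure D3:**
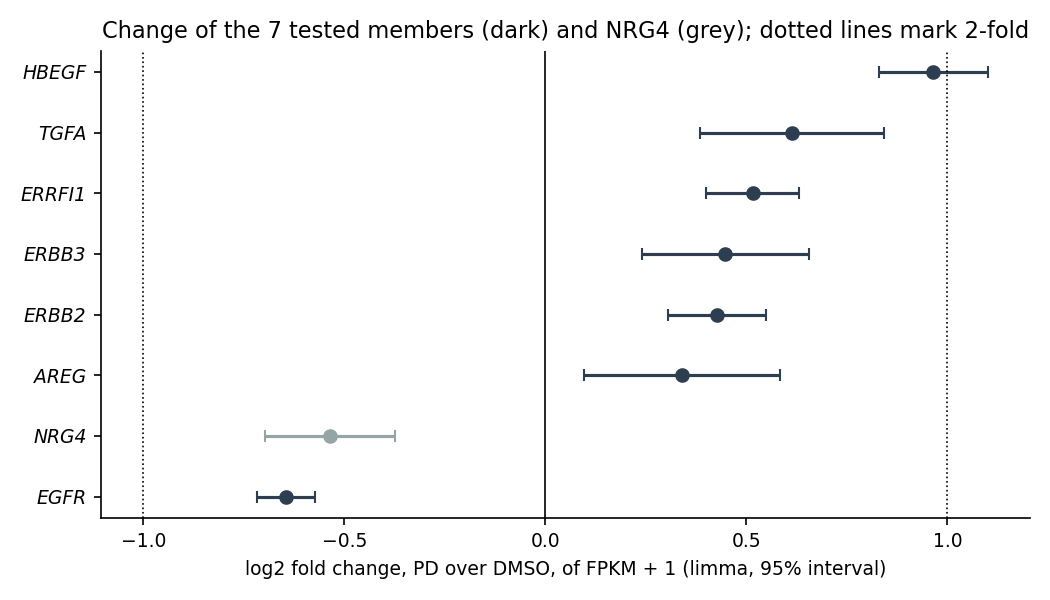
Log2 fold change of FPKM + 1 in PD over DMSO (limma, horizontal axis) with its 95% interval for the 7 tested members and NRG4. EGFR (-0.64) and NRG4 (-0.54) lie left of 0, the other 6 lie right of 0, and the interval of HBEGF (0.83 to 1.10) reaches past the dotted line at 2-fold.

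Of 6 further genes of the family, 5 were in the table and 1 was tested. This was NRG4, which encodes a ligand of ERBB4. NRG4 had 4.32, 3.85 and 4.46 FPKM in DMSO and 2.77, 2.53 and 2.47 FPKM in PD, with a change of -0.54 ± 0.07 (limma log2 estimate ± SE, adjusted p = 0.00044). With a pseudocount of 0.1 in place of 1 its log2 fold change was -0.68, and with voom it was -0.70. In DMSO each NRG4 value was above each HBEGF value, whereas in PD NRG4 was below both HBEGF and TGFA in every library. Exons of FBXO22 on the opposite strand cover 38.2% of the exon length of NRG4, so its fragments are uncertain. ERBB4, the receptor of NRG4, had 3 to 14 fragments per library (at most 0.0642 FPKM), EGF had 5 to 14 (at most 0.126 FPKM) and NRG2 had 6 to 10 (at most 0.129 FPKM), all with overlapping groups. EPGN had 1 fragment in a single DMSO library, and NRG3 had no values to analyse.

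Ordered by their mean FPKM, the genes ran in DMSO from EGFR through ERRFI1, ERBB2, NRG4, HBEGF, TGFA and ERBB3 to AREG. Each of these was above the next in all 3 libraries. AREG and NRG1 overlapped in DMSO, with means of 0.486 and 0.349 FPKM, but not in PD, with means of 0.880 and 0.235 FPKM. NRG1 had more fragments than AREG (202 against 41 in DMSO and 139 against 75 in PD), so their order depends on the gene lengths used. In PD the order was the same except that HBEGF and TGFA stood above NRG4. The genes below NRG1 (BTC, NRG2, EGF, EREG, ERBB4 and EPGN) had means of 0.126 FPKM or less in either group, and most neighbours among them overlapped.

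The machinery that releases the ligands was examined next in a list of 11 genes. Of these, 10 were tested, 5 were called higher and 2 lower, with a median of 0.27 on the log2 scale. Over all tested genes, 31.9% were called higher and 26.2% lower, with a median of 0.01. The metalloproteases ADAM17 and ADAM10, the main enzymes for release of the members, were not called. ADAM17 had 6.54 ± 0.482 FPKM with DMSO and 6.95 ± 0.101 FPKM with PD (SD, n = 3 each), and the 95% interval of its log2 fold change was -0.06 to 0.21; genes on the opposite strand cover 11.7% of its exon length. For ADAM10 the interval was -0.14 to 0.17. FRMD8, which encodes a protein that binds the inactive rhomboids, rose from 12.9 ± 0.274 FPKM (SD, n = 3) to 22.0 ± 0.193 FPKM (SD, n = 3), with a log2 fold change of 0.72 and an adjusted p of 6.3e-06 (limma). The other genes called higher, besides BACE1, were the protease gene ADAM15 (0.63) and the inactive rhomboid genes RHBDF2 (0.63) and RHBDF1 (0.47), and the genes called lower were the protease genes ADAM9 (-0.35) and ADAM12 (-0.35). BACE1, a protease that cleaves neuregulin precursors, was the single gene of the list past 2-fold, from 5.71 ± 0.119 FPKM (SD, n = 3) to 13.5 ± 0.458 FPKM (SD, n = 3), with a log2 fold change of 1.11 and an adjusted p of 3.3e-06 (limma). Antisense and neighbouring genes cover 49.0% of the exon length of BACE1, so this value is less certain. FRMD8 and BACE1 were named for the size of their change, and the other genes of this list were also singled out after their values had been seen.

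Among 14 adaptors and first effectors of the receptors, all tested, 5 were called higher and 5 lower, and the median change was 0.03 on the log2 scale. Without DMSO replicate 2 only 2 of them were called lower, and without PD replicate 3 only 3. The largest changes were those of EPS8 (0.59), a receptor substrate that acts on actin and Rac, with an adjusted p of 6.1e-05 (limma), and of PTPN11 (-0.58), the phosphatase SHP2 that carries receptor signals to Ras, with an adjusted p of 0.00018 (limma). PTPN11 had 49.9 ± 2.65 FPKM in DMSO and 33.2 ± 2.49 FPKM in PD (SD, n = 3 each). Of 15 genes other than ERRFI1 that were listed under receptor restraint, 14 were tested, and 3 were called higher and 4 lower (median 0.01). Genes on the opposite strand cover 37.9% of the exon length of LRIG1 and 42.5% of that of STUB1. Both were called higher, so these calls are less certain. SH3KBP1, which encodes the adaptor CIN85 that works with CBL in receptor uptake, had the largest change, from 3.99 ± 0.216 FPKM (SD, n = 3) to 7.78 ± 0.282 FPKM (SD, n = 3), with a log2 fold change of 0.82 and an adjusted p of 2.1e-05 (limma). SOCS4 (-0.56), which promotes loss of EGFR protein, had the largest fall, with an adjusted p of 0.0012 (limma). Of the 12 genes of endocytosis and sorting, all tested, 6 were called higher and 3 lower (median 0.13). The largest changes there were those of STAM2 (0.37), part of the endosomal sorting complex, and ERBIN (-0.34), an ERBB2-binding scaffold. EPN2, also called higher, has 26.5% of its exon length covered by a gene on the opposite strand. Beside the counts of this paragraph, the shares over all tested genes were 31.9% higher and 26.2% lower (median 0.01).

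Finally, 10 genes were taken as output of the ERK kinases, on which the receptors act. Of these, 9 were tested, and 3 were called higher and 2 lower (median 0.02). The shares over all tested genes were 31.9% higher and 26.2% lower (median 0.01). SPRY4, a feedback inhibitor of receptor signaling, had 0.537, 0.553 and 0.394 FPKM in DMSO and 1.76, 1.77 and 1.98 FPKM in PD. The groups were far apart, with a log2 fold change of 0.93 and an adjusted p of 1.0e-04 (limma). The mean of SPRY4 in DMSO, 0.495 FPKM, was under the minimum of 0.5 FPKM. SPRY4 was thus tested only through its PD level (mean 1.84 FPKM), and its call depends on its rise. The ratio of its mean FPKM was 3.72, and the log2 fold change was 1.71 with a pseudocount of 0.1 and 1.90 with limma voom on fragments. DUSP6, the phosphatase that turns off ERK, rose from 0.615 ± 0.142 FPKM (SD, n = 3) to 1.75 ± 0.248 FPKM (SD, n = 3), with a log2 fold change of 0.77 and an adjusted p of 0.00065 (limma). The ratio of its mean FPKM was 2.85, and the log2 fold change was 1.38 with a pseudocount of 0.1 and 1.52 with voom, so that SPRY4 and DUSP6 were past 2-fold in both of these settings. An unnamed gene on the opposite strand covers 28.6% of the exon length of DUSP6. SPRY4 and DUSP6 were named for the size of their change. The other genes called, also chosen after their values were seen, were ETV5 (0.74), CCND1 (-0.51) and EPHA2 (-0.35). These encode an ETS transcription factor, cyclin D1 and an ephrin receptor. PHLDA1, SPRY2, DUSP4 and ETV4 were not called.

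**Figure D4:**
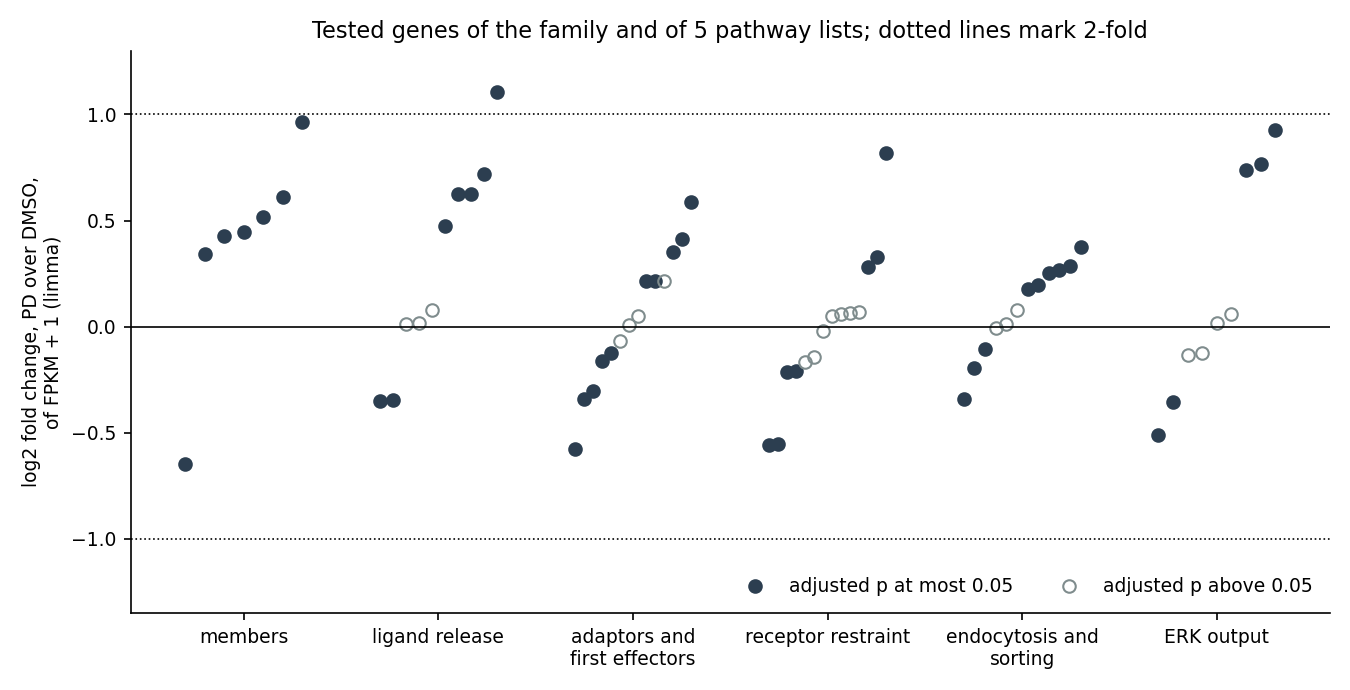
Log2 fold change of FPKM + 1 in PD over DMSO (limma, vertical axis) for the 7 tested members and for each tested gene of 5 pathway lists; filled points passed the adjusted p threshold of 0.05 and open points did not. All 7 members were called, 6 of them above 0 and EGFR below it, and each pathway list also held genes called in both directions. BACE1 (1.11) was the point past the dotted line at 2-fold.

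The genes whose levels followed HBEGF most closely over the 6 libraries were SLC41A1, ACOT13 and INSR, with a Pearson r of 0.9999, 0.9998 and 0.9998 on the log2(FPKM + 1) scale. Their log2 fold changes were 0.81, 0.47 and 0.33, so they shared the order of the libraries and not the size of the change. All libraries share the contrast between treatments, and 2735 of 14399 other genes had an r of at least 0.95, so such a correlation is a description of these libraries.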

How the data were processed

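HepG2 cells were treated with PD or DMSO for 24 h, with 3 libraries per treatment, and samples were assigned to groups from their titles. The authors selected poly(A) RNA, prepared NEBNext Ultra libraries, aligned reads to hg38 with HISAT2, counted them with HTSeq 0.6.0 and deposited FPKM, the only values used here. The annotation release and the strand setting of the counting are not given in the sources used here. Identifiers were paired with symbols of GENCODE release 44 (28161 of 28563), which also gave positions and exon overlaps.

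The members and gene lists were chosen with earlier results of these data known. The main test was limma 3.58.1 in R 4.3.3 on log2(FPKM + 1), with an intensity-dependent prior variance, for genes whose mean level reached 0.5 FPKM. It was tested on simulated data, with changes past 2-fold only. The changed genes there had higher mean levels than HBEGF, TGFA, ERBB3 and AREG. The simulation thus does not cover smaller changes or such low levels. Exact permutation tests were made in scipy 1.17.1. Whole fragments were worked back from FPKM for all genes (12879 by exon length and 15684 by a common step, each within 0.001 of a whole number). Libraries of a group were not duplicates, since the chi-square statistic of their fragments per gene was 2.30 to 3.78, where sampling noise alone gives about 1. All 10 members and the 6 other family genes were named, and from each pathway list the genes past 2-fold or, with fewer than 2 of these, the called genes with the largest changes up to 2. Alternatives were a pseudocount of 0.1, no filter, 2 other scalings, limma voom on fragments, omission of each library in turn, and a block for the replicate number.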

Additional observations from a re-analysis of the deposited data

How the results depend on the processing

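The directions of the 7 tested members were the same under every alternative, and AREG was the only one to lose its call (adjusted p from 0.023 to 0.080 over the alternatives, limma). With a pseudocount of 0.1, 1248 genes were past 2-fold, including 1 member and 2 genes of the ERK output list (SPRY4 and DUSP6), and with limma voom on fragments 1734 genes, 1 member and 2 genes of that list, while voom called 2 members lower. The member past 2-fold was HBEGF in both. Upper quartile scaling moved the median of all genes from 0.01 to -0.05 and gave 3798 higher and 4675 lower genes, against 4588 and 3780, called 3 adaptors higher and 7 restraint genes lower, and changed the receptor sum by -42.8 FPKM in place of -36.9. Without 1 library at a time, 2 to 5 adaptors were called lower, the fewest without DMSO replicate 2 (2) and PD replicate 3 (3). The cause of these shifts was not tested. The replicate number as a block gave 4414 higher and 3618 lower genes, 5 members higher and 1 lower, and AREG (adjusted p = 0.061, limma) was the call it removed among the members. Same-numbered libraries did not deviate together (correlations of -0.03 to 0.09, and not every library correlated best with its own number), so the numbers do not pair the dishes. EREG, BTC and AREG rest on under 30 fragments per library.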
